A study of Mus musculus with 2 samples.

Results

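Genes of glycolysis and of the response to low oxygen were examined in cultured keratinocytes, the cells that build the epidermis, from control mice and from mice labelled as lacking MED1 in keratinocytes. MED1 is a subunit of the Mediator complex, which links transcription factors to RNA polymerase II. The set was a list of 34 genes, and its members were found by gene symbol: a probe set, a group of short probes summarised as 1 signal, was taken where the platform annotation gave it a listed gene as its single symbol. Of the 34 genes, 30 had at least 1 such probe set other than array controls (69 probe sets), out of 18193 genes on the array. A gene counted as measured where the probe set of highest mean signal reached the floor, the median signal of 67.7, on either array, which held for 28 members and for 11621 genes in all. Slc2a3 and Ankrd37 read below the floor on both arrays, Gapdh had control probe sets only, and Gpi1, Eno1 and Bnip3l had no probe set with a single symbol here.

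Glycolysis splits glucose into pyruvate, and lactate dehydrogenase turns pyruvate into lactate when mitochondria take up less of it. The hypoxia-inducible factors are pairs of an oxygen-regulated alpha subunit (HIF1A, or EPAS1, also known as HIF2A) and the stable partner ARNT. In the presence of oxygen, prolyl hydroxylases (EGLN1, EGLN2 and EGLN3) mark the alpha subunit, VHL binds the mark, and the subunit is degraded. When oxygen is scarce the pair binds short DNA elements near its target genes, which include glucose transporters, most glycolytic enzymes, and EGLN1 and EGLN3 themselves. The control of the alpha subunits acts largely on the protein, which these arrays do not measure.

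Keratinocytes were isolated from the epidermis of newborn C57BL/6 mice and grown as a primary culture on collagen in CnT07 medium. The control culture is titled MED1flox/flox and labelled wild-type in its source and genotype. The other culture, titled MED1epi-/-, came from mice that carry MED1flox/flox and K5Cre, in which the keratin 5 promoter drives Cre recombinase, so deletion is limited to cells that have used that promoter. Each culture was read on 1 Affymetrix mouse array, the number of mice behind each is not given in the labels, and no test or spread between cultures could be computed. All 7 Med1 probe sets read higher on the MED1-null-labelled array (462.7 and 1039 for the one of highest signal, 2.24-fold), and the deleted exons are not named in the labels, so these values do not check the label. Xist, made by the inactive X of female cells, gave 5461 (control) and 55.7, so sex-linked RNA moved with the label, and its part in the results was not tested. The only spread available, that of log2 ratios between probe sets of the same gene, had a pooled SD of 0.31 over 4916 genes and of 0.16 over 16 members for which 2 or more probe sets reached the floor on each array.

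Markers of the labelled cell type were present on both arrays. Of 9 keratinocyte markers 7 were measured, with a summed signal of 109985 on the control array and 134214 on the MED1-null-labelled array, and Krt1, a keratin of differentiating cells, was below the floor on both. Fibroblast markers summed to 3371 and 1416 over 7 measured of 10, and most of both sums was Sparc (2709 and 1034), which other cells also make. The other 6 lay between 72.8 and 156.6 on the control array, near the floor, Col1a2 went the other way (80.3 and 115.3), and Col1a1, Lum and Pdgfrb were below the floor on both arrays. All 8 melanocyte markers were measured, with sums of 25056 and 19507, and the brightest were Tyrp1 (9346 and 6715) and Dct (7568 and 6584). By their brightest probe sets 6 were lower and 2 went the other way, Tyr (626.6 and 746.8) and, by little, Sox10 (259.9 and 261.3). Of the markers of endothelial cells 1 of 6 was measured, of leukocytes 3 of 7 (Ptprc, Cd3e, Cd207 and Itgam were below the floor), of erythroid cells 0 of the 2 with a probe set, and of muscle 3 of 5. The summed signals of the keratinocyte and melanocyte markers, and Sparc, thus moved with the label, and their part in the values below was not tested. In RNA from a whole culture, fewer cells of a type and less RNA per cell cannot be told apart.

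Promoters of 5 members are shown as examples. Egln1, Egln3, Slc2a1 and P4ha1 were each about 1.4 to 1.5-fold higher on the MED1-null-labelled array. Pdk1, at 1.39-fold higher, is not shown. Ldha, an enzyme near the middle of all genes, had the most core matches when both strands and 50 bases after the start are counted. Of its 7 cores, 5 lie in the bases shown. Each is the 250 bases before a transcription start, written 5′ to 3′ along the gene, from RefSeq on GRCm38.p6. Capitals mark the core of the hypoxia response element, ACGTG or GCGTG, on either strand, so that CACGT and CACGC are capitals too. The windows are Egln1 (chr8:124949255-124949504, minus strand), Egln3 (chr12:54203875-54204124, minus strand), Slc2a1 (chr4:119108495-119108744, plus strand), P4ha1 (chr10:59323046-59323295, plus strand) and the first listed start of Ldha (chr7:46845554-46845803, plus strand).
Egln1: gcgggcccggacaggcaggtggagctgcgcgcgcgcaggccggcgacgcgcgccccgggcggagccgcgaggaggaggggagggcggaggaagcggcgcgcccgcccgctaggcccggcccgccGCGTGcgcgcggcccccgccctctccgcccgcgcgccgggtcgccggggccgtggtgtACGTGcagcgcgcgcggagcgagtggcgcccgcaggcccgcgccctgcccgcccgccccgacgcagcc
Egln3: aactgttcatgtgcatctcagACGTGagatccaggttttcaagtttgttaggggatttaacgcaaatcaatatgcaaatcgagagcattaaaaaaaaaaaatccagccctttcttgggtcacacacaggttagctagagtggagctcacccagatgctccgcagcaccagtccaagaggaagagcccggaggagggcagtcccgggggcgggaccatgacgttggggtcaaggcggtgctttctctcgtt
Slc2a1: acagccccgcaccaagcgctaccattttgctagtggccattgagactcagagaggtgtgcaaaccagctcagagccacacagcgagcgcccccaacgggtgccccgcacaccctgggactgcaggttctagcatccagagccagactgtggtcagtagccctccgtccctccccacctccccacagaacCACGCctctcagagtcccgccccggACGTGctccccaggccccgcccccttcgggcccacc
P4ha1: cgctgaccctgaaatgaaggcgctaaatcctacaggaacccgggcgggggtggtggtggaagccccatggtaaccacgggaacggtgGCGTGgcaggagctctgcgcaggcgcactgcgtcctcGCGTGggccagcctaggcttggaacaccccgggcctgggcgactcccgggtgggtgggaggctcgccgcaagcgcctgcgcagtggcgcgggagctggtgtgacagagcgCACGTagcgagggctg
Ldha: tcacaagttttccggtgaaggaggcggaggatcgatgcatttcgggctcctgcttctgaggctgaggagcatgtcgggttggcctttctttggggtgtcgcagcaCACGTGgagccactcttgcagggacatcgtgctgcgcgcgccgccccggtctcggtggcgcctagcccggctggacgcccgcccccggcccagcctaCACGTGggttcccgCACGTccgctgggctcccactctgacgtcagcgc

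None of the 28 measured members was 2-fold higher or lower on the MED1-null-labelled array, and they did not lean one way. Among all 11621 measured genes 1.63% were past 2-fold upwards and 2.23% downwards, 3.86% in all, so the background rate amounts to about 1 gene in 28. Lower genes made up 57.7% of those beyond 2-fold, and 68.7% after a lowess correction. The lean reversed with low floors: lower genes were 45.5% with the floor at the 25th percentile and 46.2% with no floor. At 1.5-fold, Egln1 was the 1 member counted as higher and Ndrg1 the 1 counted as lower, against 7.80% and 7.32% of all measured genes (15.1% in either direction). The log2 ratio was above 0 for 14 members and below 0 for 14, against 57.1% above 0 among all measured genes. The members' median was -0.03 and that of all measured genes 0.06. Member ratios ran from -0.68 to 0.63 with an SD of 0.34, against 0.46 for all measured genes.

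**Figure D1:**
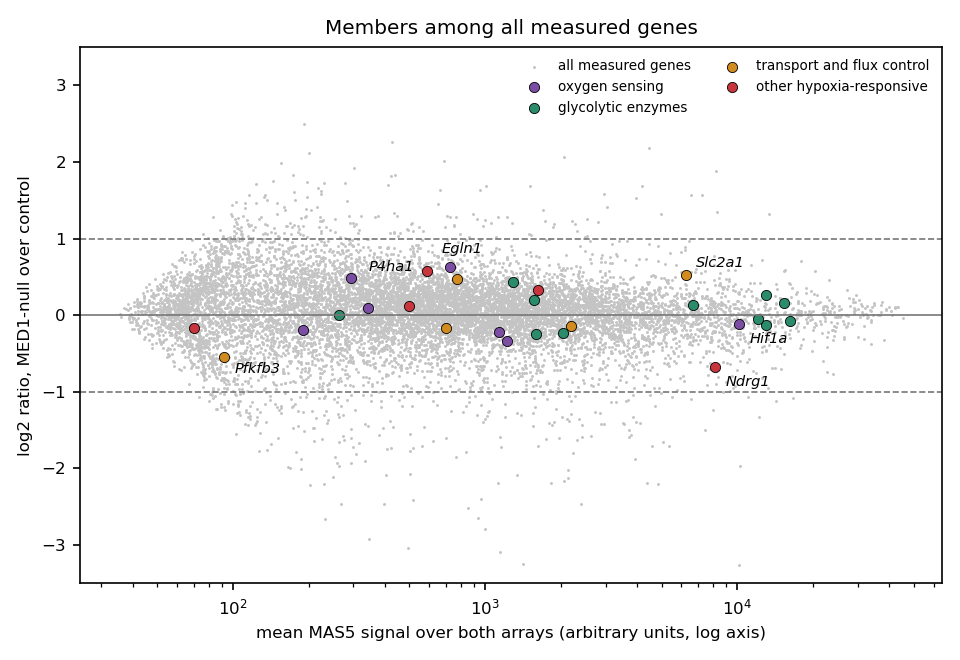
Each grey point is a measured gene, placed by its mean MAS5 signal over both arrays (log axis) and its log2 ratio, MED1-null over control; coloured points are the 28 measured members by role, and 2 genes beyond 3.5 log2 units are outside the axis. All members lie between the dashed lines at 2-fold, with Egln1 (0.63) highest and Ndrg1 (-0.68) lowest.

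The oxygen sensors split by gene. Egln1, the main prolyl hydroxylase that marks HIF1A, read 570.5 in the control and 880.0 on the MED1-null-labelled array, 1.54-fold higher (values below are given in this order). Egln3, a hydroxylase that is itself strongly induced by low oxygen, read 245.2 and 342.9, 1.40-fold higher. Both were higher by each of their probe sets: the second of Egln1 read 250.6 and 293.7 (log2 ratio 0.23), and the second of Egln3 read 90.1 and 150.2 (0.74). Egln2, the hydroxylase that low oxygen does not induce, went the other way, at 1361 and 1075 (1.27-fold lower) by its single probe set. Among all measured genes, 6.83% had a ratio as high as that of Egln1, 11.7% as high as Egln3, and 14.9% as low as Egln2. No test of the difference between the hydroxylases was possible with 1 array each.

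The factors themselves lay near 0. Hif1a read 10576 and 9784 (log2 ratio -0.11), and its other 3 probe sets read 1164 and 1229, 1685 and 1635, and 76.6 and 50.7. These go both ways, and the ratio of Hif1a was 0.08 when probe sets with suffix x, s or a were left out. Arnt, the partner subunit, read 1216 and 1043 (-0.22). Its other probe sets at the floor read 728.7 and 670.5, 417.2 and 424.7, and 59.0 and 129.5. The last was 1.91-fold higher with the control signal, which lay below the floor, raised to it. The remaining Arnt probe set was below the floor on each array (61.2 and 47.1). Epas1 read 331.6 and 352.9 (0.09), while its dimmer probe set, at 75.6 and 57.9, went the other way, and so did its ratio over both probe sets. Vhl, which brings hydroxylated HIF to degradation, read 202.6 and 177.3 (-0.19) by one probe set and 117.9 and 149.2 (0.34) by the other. For Hif1a, Arnt, Epas1 and Vhl the direction thus depended on the probe set, and each ratio from the brightest probe set was smaller than the SD of 0.31 between probe sets over all genes. Against the SD of 0.16 over the members, those of Arnt and Vhl were larger and those of Hif1a and Epas1 smaller. The 7 oxygen-sensing genes, 3 above 0 and 4 below, had a median of -0.11, which was 0.08 without probe sets of suffix x, s or a.

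**Figure D2:**
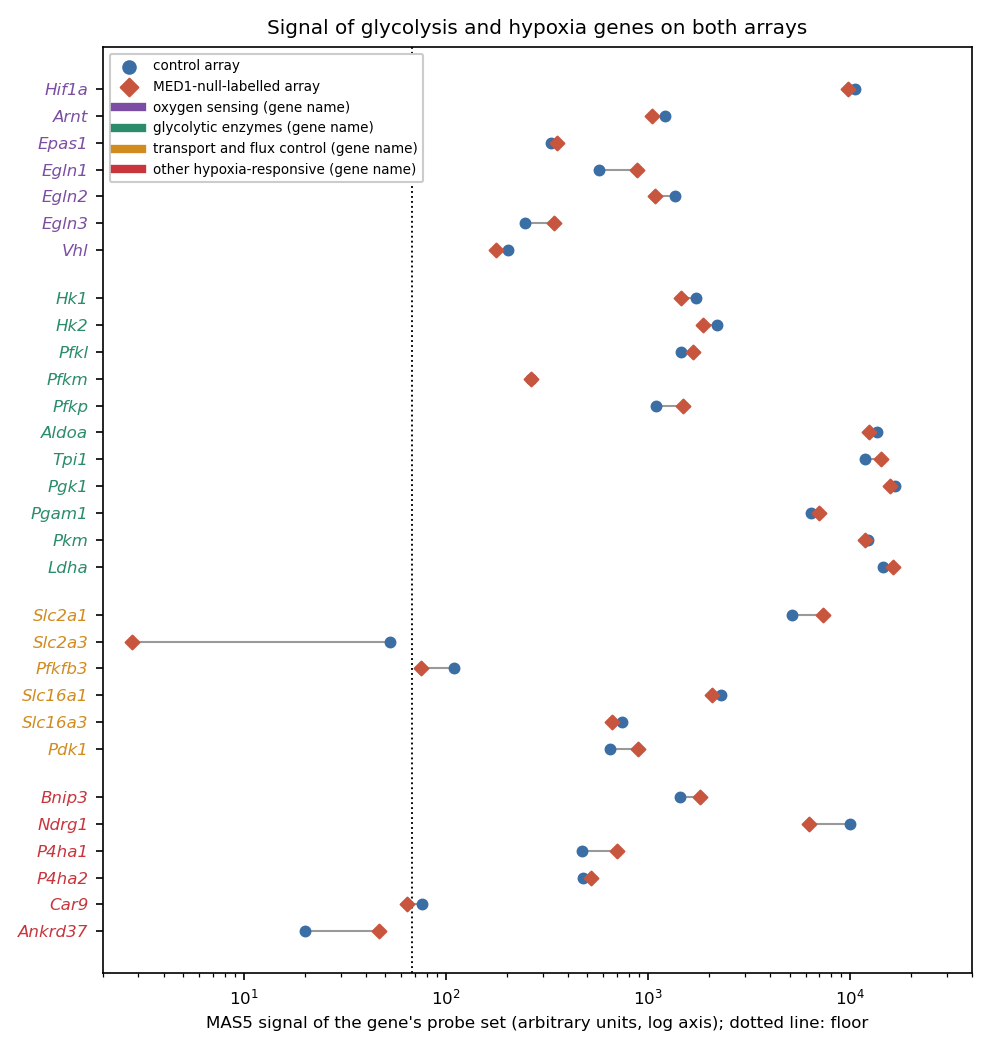
MAS5 signal (log axis) of the brightest probe set of the 30 members with a single-symbol probe set, on the control array (circles) and the MED1-null-labelled array (diamonds), grouped by role; the dotted line is the floor of 67.7. Diamonds lie close to circles for most glycolytic enzymes. They lie to the right for Egln1, Egln3, Slc2a1, Pdk1, P4ha1 and Pfkp, and to the left for Ndrg1 and Pfkfb3. Slc2a3 and Ankrd37 lie below the floor.

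Glycolytic enzymes had the narrowest range of the 4 groups of members. The 11 measured enzymes had a median log2 ratio of 0.0005, an SD of 0.22 and a range from -0.25 to 0.43, with 6 above 0 and 5 below. At the entry step, hexokinase phosphorylates glucose. Hk1 read 1724 and 1452 (1.19-fold lower), with a second probe set at 1255 and 1202. Hk2, the form known to be induced by HIF, read 2197 and 1867 (1.18-fold lower). Both hexokinases were lower, by less than the 1.24-fold of the SD between probe sets over all genes and by more than the 1.11-fold of the SD over the members.

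Phosphofructokinase, the committed step, is encoded by a gene for each of 3 subunits. Pfkp, the platelet form, read 1093 and 1478, 1.35-fold higher, the ratio farthest from 0 among the enzymes. Its other probe sets read 686.8 and 722.0 and, with the control below the floor, 64.0 and 97.9, so that its size depended on the probe set. Pfkl, the liver form, read 1456 and 1672 (1.15-fold higher), with further probe sets at 1056 and 1283 and at 85.7 and 110.9. Pfkm, the muscle form, read 263.6 and 263.7. All probe sets of Pfkp and Pfkl were higher on the MED1-null-labelled array, while the sign of Pfkm changed under 3 alternatives.

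In the lower part of the pathway, enzymes with bright signals were alike on both arrays. Aldoa, aldolase A, read 13615 and 12416 (-0.13), and its other 4 probe sets read 8892 and 9468, 6637 and 6454, 5628 and 5743, and 4108 and 3442, log2 ratios from -0.26 to 0.09 that went both ways. Tpi1, triosephosphate isomerase, read 11829 and 14195, 1.20-fold higher, with 3 of 3 probe sets above 0 (0.12 to 0.26). Pgk1, phosphoglycerate kinase, read 16595 and 15698, and its 3 probe sets lay between -0.13 and -0.08. The direction of Tpi1 and Pgk1 was thus the same for all their probe sets, though both were small. Pgam1, phosphoglycerate mutase, read 6356 and 6970 (0.13). Pkm, pyruvate kinase, read 12276 and 11816 (-0.06, and 0.02 after quantile normalization). Ldha, which makes lactate, read 14444 and 16198 (1.12-fold higher), a ratio reached by 36.8% of measured genes.

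Gapdh was outside the counts since its single-symbol probe sets are array controls. The 3 of them, for the 3′ end, the middle and the 5′ end of the transcript, read 28633 and 29330, 31969 and 34227, and 37558 and 38253, with log2 ratios from 0.03 to 0.10. These signals are near the highest of the arrays (45825 and 46749). All probe sets of Aldoa and Tpi1, and 2 of the 3 of Pgk1, carry a suffix (x or a) that marks probes which can match more than 1 transcript. Whatever the suffix, signals of processed copies of these genes cannot be told apart from those of the genes.

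**Figure D3:**
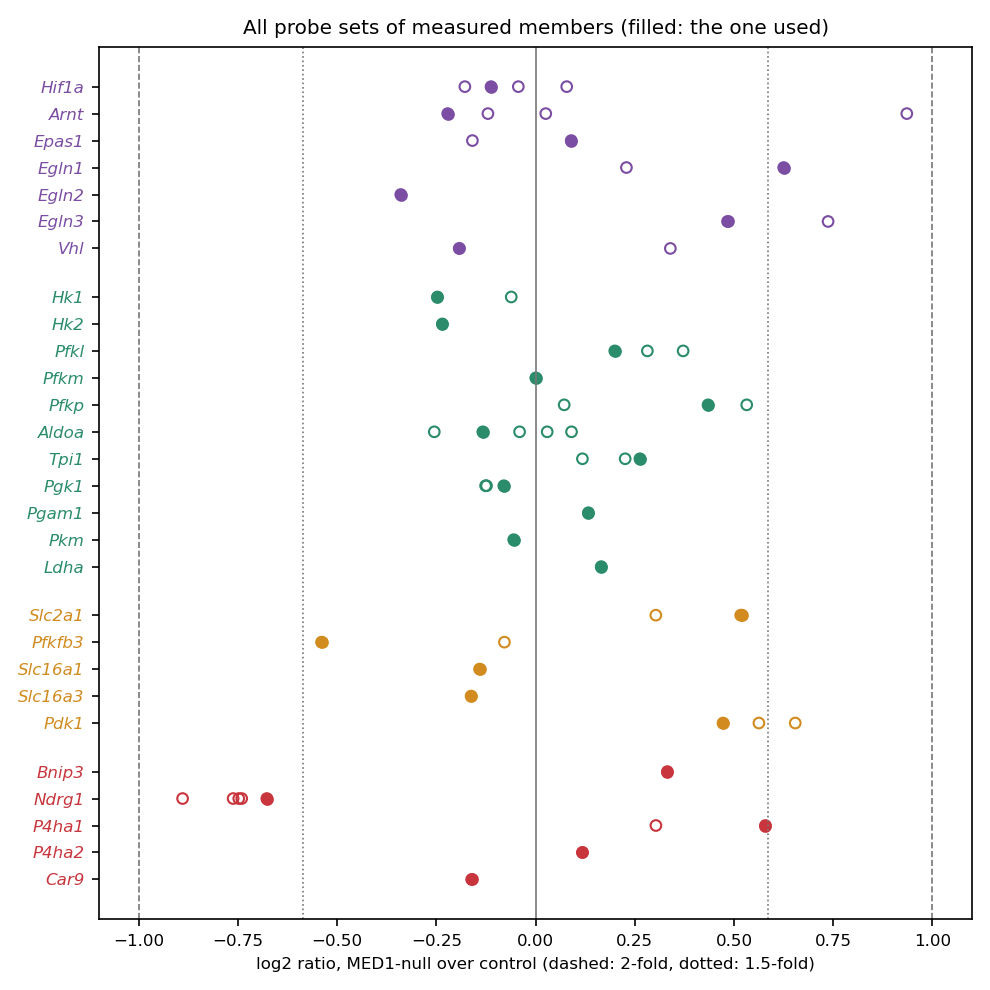
Log2 ratio, MED1-null over control, of every probe set of the measured members at the floor on either array (open circles) and of the brightest one, used for the gene (filled), with dashed lines at 2-fold and dotted lines at 1.5-fold. The 5 probe sets of Ndrg1 lie together from -0.89 to -0.68, and those of Slc2a1, Pdk1, Egln1, Egln3 and P4ha1 lie above 0.

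Genes that bring glucose in and steer pyruvate lay on both sides of 0. Slc2a1, the glucose transporter GLUT1 of keratinocytes, read 5121 and 7340, 1.43-fold higher on the MED1-null-labelled array. Its other probe sets read 3835 and 5488 (0.52) and 2800 and 3455 (0.30). Pdk1, the kinase that shuts pyruvate dehydrogenase and so limits the use of pyruvate in mitochondria, read 644.6 and 894.3, 1.39-fold higher. The other probe sets of Pdk1 at the floor read 282.0 and 443.9 (0.65) and 98.9 and 146.1 (0.56). Slc2a1 and Pdk1 were thus higher by each of their 3 probe sets at the floor, and 1165 and 1419 of the 11621 measured genes had ratios as high. Pfkfb3, which makes the activator of phosphofructokinase, read 109.3 and 75.2, 1.45-fold lower, close to the floor where low signals are noisy. Its second probe set, at 73.6 and 69.7, had a ratio of -0.08.

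Lactate exporters lay near 0. Slc16a1, the transporter MCT1, read 2287 and 2074 (-0.14), with its other probe set below the floor on both arrays. Slc16a3, the transporter MCT4 and a known HIF target, read 739.9 and 661.1 (-0.16). Slc2a3, the transporter GLUT3, read below the floor by all 4 of its probe sets, the brightest at 53.0 and 2.8, and no ratio is given. The 5 measured genes of this group had a median of -0.14, with 2 above 0 and 3 below, and with a floor at percentile 75 of all signals, where Pfkfb3 drops out, the median was 0.17.

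Of the other hypoxia-responsive genes, Ndrg1 stood lowest and P4ha1 highest. Ndrg1, a stress-responsive gene of epithelial differentiation that low oxygen induces, read 10017 and 6264, 1.60-fold lower on the MED1-null-labelled array. Its other 4 probe sets read 9213 and 5431, 7424 and 4420, 5087 and 2746, and 3733 and 2234. All 5 were lower, with log2 ratios from -0.89 to -0.68, and 5.50% of measured genes had a ratio as low as the one used. The ratio stayed between -0.75 and -0.63 over the 8 alternatives run, though other floors can hardly move signals this bright.

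P4ha1 and P4ha2 encode catalytic subunits of collagen prolyl hydroxylase, which prepares collagen for folding and belongs to the same enzyme class as the EGLN proteins. P4ha1 read 470.3 and 702.7, 1.49-fold higher, and 448.8 and 553.8 by its other probe set (0.30). P4ha2 read 478.0 and 518.8 (0.12). Bnip3, a mitochondrial protein that promotes mitophagy under low oxygen, read 1436 and 1808, 1.26-fold higher by its single probe set. Car9, a carbonic anhydrase that is among the most sensitive marks of HIF1 activity, read 75.7 and then, under the floor, 64.0. Ankrd37, also strongly induced by HIF1, read 20.1 and 46.6, below the floor on both arrays. Both of these sensitive HIF1 targets were therefore at or under the level at which the arrays measure. The 5 measured genes of the group had a median of 0.12, with 3 above 0 and 2 below.

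Known targets of HIF outside the member list included genes with ratios farther from 0 than that of any member. Of 30 such genes 26 were measured: 3 lay past 2-fold on the higher side, 3 on the lower side and the rest between, against 1.63% and 2.23% of all measured genes. Their median was 0.03, and -0.04 with the median ratio of all genes set to 0 and -0.01 over all probe sets of each gene. On the higher side were the vasodilator peptide gene Adm (3530 and 12984), the growth factor gene Pdgfb (186.7 and 655.6) and Angptl4, a secreted inhibitor of lipoprotein lipase (114.6 and 250.4, 2.19-fold). Adm and Pdgfb differed 3.68-fold and 3.51-fold, with both probe sets of each in the same direction. On the lower side were Cited2, a HIF-induced inhibitor of HIF that competes for its coactivator (2891 and 1386, 2.09-fold), Ddit4, an inhibitor of mTORC1 (6683 and 3298, 2.03-fold), and Vldlr, a lipoprotein receptor (1698 and 844.1, 2.01-fold). Log2 ratios of the Cited2 probe sets spanned -1.60 to -1.06, and the Vldlr ones -1.08 to -0.12. Known targets of the same factors thus lay on both sides of 0, as did the members.

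Of 12 other genes of the oxygen sensor 10 were measured, 7 above 0 and 3 below, with a median of 0.08. All 10 lay within 2-fold with signals raised to the floor. Rbx1, the ring subunit of the VHL ubiquitin ligase, read 11.4, below the floor, and 113.1. Rbx1 was 1.67-fold higher with its control signal raised to the floor, by 1 probe set close to the floor where low signals are noisy. Cul2, its cullin, read 1470 and 1875 (1.28-fold higher), Siah1a, a ligase for the hydroxylases, 626.3 and 734.2 (0.23, with a second probe set at -0.17), and Os9 1137 and 893.7 (1.27-fold lower).

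Around glycolysis, the larger differences were those of single genes, and the medians of 5 further lists lay between -0.04 and 0.19. Of 12 measured isoenzymes and regulators 1 was 2-fold higher, Gapdhs, the form of GAPDH known from sperm (514.5 and 1070, 2.08-fold), and Pfkfb4, a HIF-induced relative of Pfkfb3, was 1.73-fold lower at 880.6 and 508.4. Bpgm, which makes 2,3-bisphosphoglycerate, was 1.32-fold lower, and Tigar, which breaks down the activator that PFKFB enzymes make, was 1.31-fold higher by the probe set used and went both ways over its probe sets. The median was 0.19, and it changed sign under 2 alternatives, at -0.05 with the floor at the 75th percentile and -0.09 over all probe sets of each gene. It was 0.03 with no floor and 0.03 without probe sets of suffix x, s or a. Pfkfb3, close to the floor, and Pfkfb4 were therefore both lower, on the 1 array of each group. Pfkfb2, of the same family, was higher at 209.3 and 245.2 (0.23), and its 4 probe sets at the floor ran from -0.36 to 0.23.

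In the pathways that take up pyruvate and glucose carbon, no gene of pyruvate entry, of the tricarboxylic acid cycle or of the pentose phosphate pathway reached 1.5-fold by its brightest probe set. Dimmer probe sets did so for Sdhd, Sdha, Dlst and Pgd (log2 ratios of -1.50, -1.09, 0.60 and -0.68). For pyruvate entry (10 measured, median -0.04), Dlat and Pdhx, components of pyruvate dehydrogenase, were 1.30-fold and 1.26-fold higher and Pdk3 and Dld 1.11-fold and 1.10-fold lower. For the tricarboxylic acid cycle (15 measured, median 0.06), Sdhd, Fh1, Sdhb and Suclg2 were 1.25-fold, 1.23-fold, 1.17-fold and 1.16-fold higher. For the pentose phosphate pathway (6 measured, median -0.01, and 0.15 without probe sets of suffix x, s or a), Pgls and Rpe were 1.40-fold and 1.21-fold higher and Rpia and Pgd 1.35-fold and 1.23-fold lower. Of 11 measured genes of glycogen and gluconeogenesis, 2 were at least 2-fold lower and 0 higher, against 2.23% and 1.63% of all measured genes. Their median was 0.09, and -0.11 with the floor at the 75th percentile and -0.02 after lowess. The 2 lower genes were Pck2, the mitochondrial enzyme that makes phosphoenolpyruvate (1053 and 347.8, 3.03-fold), and G6pc3, a glucose-6-phosphatase (264.6 and 126.0, 2.10-fold). The dimmer Pck2 probe set had a log2 ratio of -0.81, short of 2-fold. On the higher side were Pygl, a glycogen phosphorylase (376.5 and 641.6, 1.70-fold), and Gbe1, the glycogen branching enzyme (128.0 and 190.8, 1.49-fold).

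**Figure D4:**
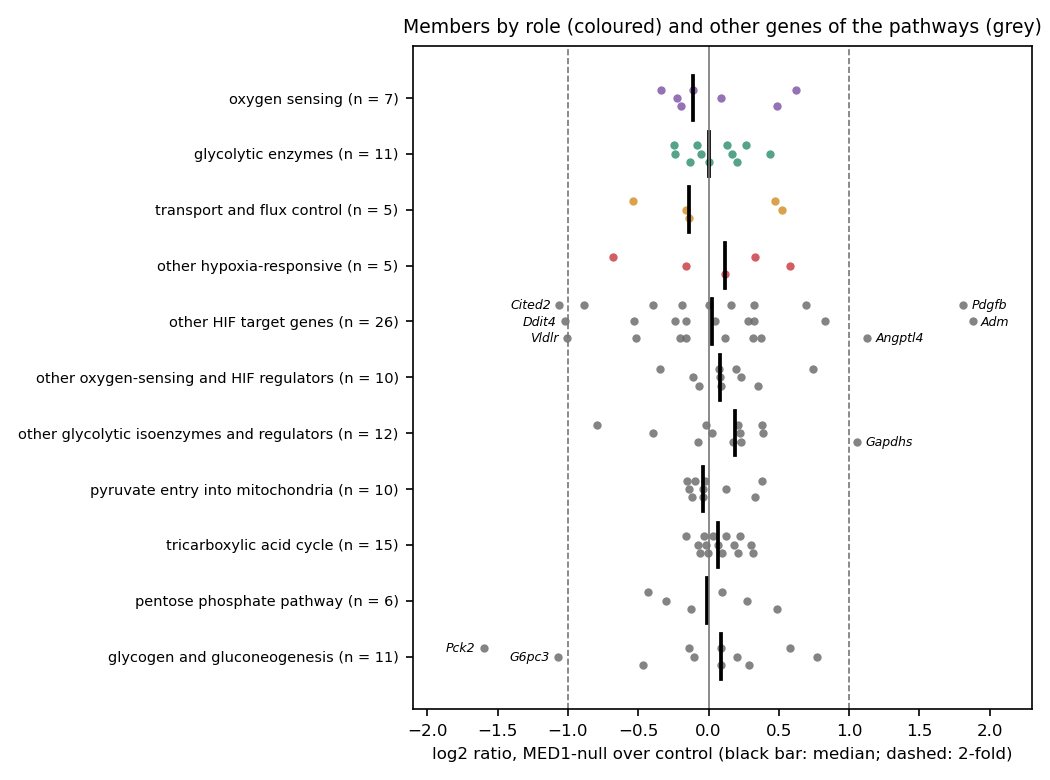
Log2 ratio, MED1-null over control, of each measured gene of the member groups (coloured) and of other genes of the pathways (grey), with the median of each list as a black bar and dashed lines at 2-fold. Medians lie between -0.14 and 0.19; Adm, Pdgfb, Angptl4 and Gapdhs lie beyond 2-fold on the right and Pck2, G6pc3, Cited2, Ddit4 and Vldlr on the left.

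The promoters of the members held the response element core more often than promoters at large, as a description with no test. Promoter windows, 250 bases before to 50 bases after a start, were matched by symbol for 30 of the 34 members (43 windows), and Epas1, Slc2a3, Bnip3l and Ndrg1 had no entry. A core, ACGTG or GCGTG on either strand, was in 35 of 43 member windows (81.4%), against 61.7% of the windows of measured genes and 43.8% of all windows. The stricter form ACGTG was in 58.1% of member windows, against 25.4% and 19.6%. Some windows of the same gene overlap. Counted by gene, a core was found for 90.0% of members, 67.7% of measured genes and 46.7% of all genes with a window. The members were listed as genes of glycolysis and of the response to low oxygen, so a higher share is no independent finding. Both forms are rich in G and C, and so were the windows, with a median of 64.3% G and C for members, 60.7% for measured genes and 52.7% for all; the part of base composition was not tested. The E-box CACGTG, bound by other factors, holds ACGTG on both strands and counts as 2 cores.

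Among the measured members with a window, ACGTG was found for 9 of 13 with a ratio above 0 and for 11 of 13 below 0. Ldha had 7 cores at its first listed start, 5 of them in the sequence shown, and a ratio of 0.17. The 7 cores were the most of any member window, but they count both strands of 2 CACGTG sites. Hk1 had 5 cores with no CACGTG at its first listed start, and a ratio of -0.25. Egln3, at 0.48, had 1 core, far upstream in the sequence shown. Slc2a1 and Egln1 had 2 cores each and P4ha1 3. Tpi1, Vhl and Gpi1 had none in these windows. Among these examples the ratios did not follow the number of cores, but a relation over all members was not tested. A match in this window is a description of the letters, not a bound site.

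**Figure D5:**
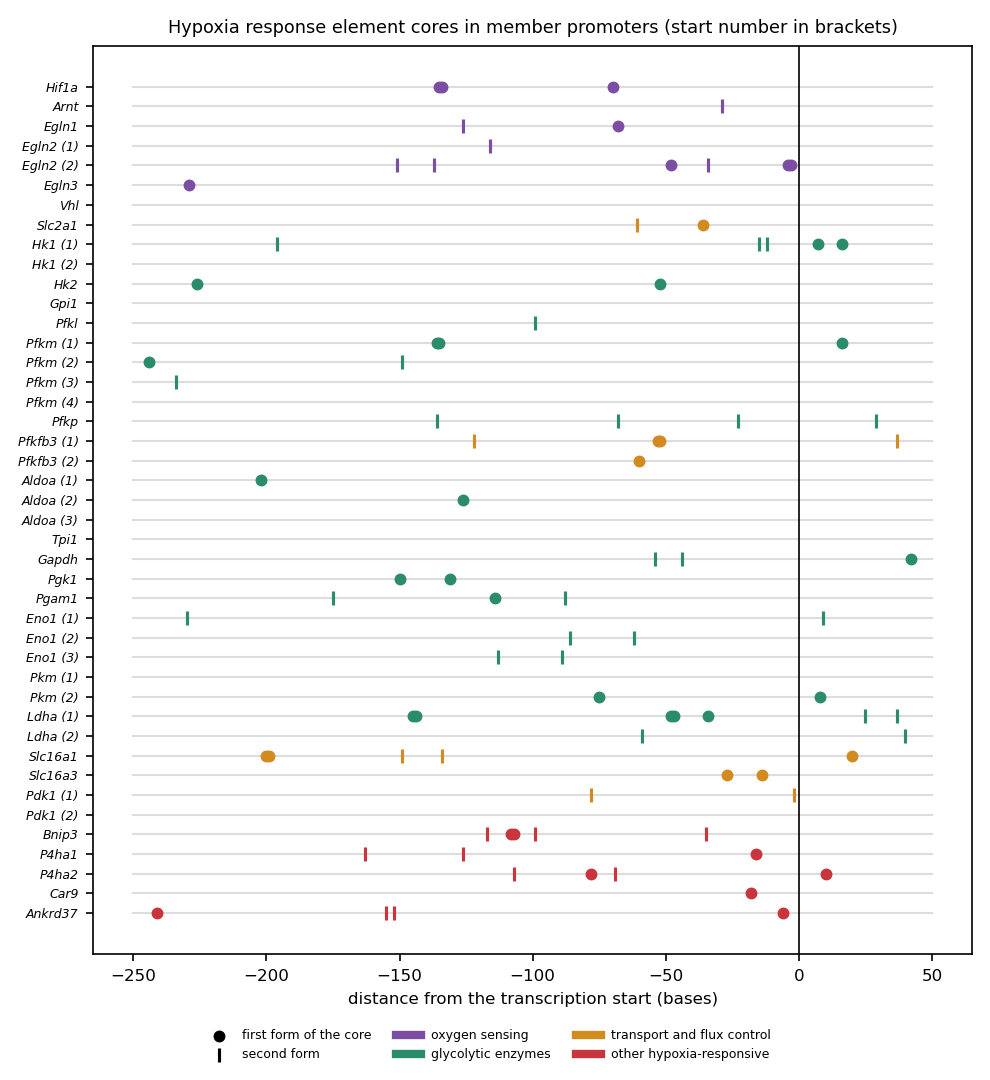
Position of each core of the hypoxia response element relative to the transcription start (bases) in the 43 promoter windows of 30 members, 1 line per listed start (numbered in brackets where a gene has several), coloured by role; circles are ACGTG and ticks GCGTG, on either strand. Cores are found in 35 windows, with the most at the first start of Ldha (7, counting each CACGTG on both strands).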

How the data were processed

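RNA of 2 primary keratinocyte cultures was hybridised to 1 Affymetrix array each. The authors deposited a linear signal intensity for each probe set, made with MAS5 per the submitters' processing notes; its version is not given in the sources used here. MAS5 subtracts mismatch signal, which makes low values noisy, so signals were raised to the median of all probe sets other than controls over both arrays (67.7) before log2. Symbols came from GEO's platform annotation, and all 72 probe sets of members had the same symbol by Entrez ID in RefSeq on GRCm38.p6. The probe set of highest mean signal other than controls stood for a gene, and ratios are the MED1-null-labelled array over control. With 1 array per group there was no test; a gene counted as higher or lower from 2-fold or, where said, 1.5-fold. The members, their roles, the other gene lists and the rules were chosen with earlier results of these data known. All members were named, members at least 1.5-fold apart or with probe sets going both ways with all probe sets at the floor, and of each other list the 4 genes with ratios farthest from 0 and those beyond 2-fold. Counting was tested on simulated data. Calculations used Python 3.11.15 with pandas 2.3.3 and numpy 2.4.6. Alternatives were other floors, scalings and probe set choices, and a 1.5-fold threshold.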

Additional observations from a re-analysis of the deposited data

How the results depend on the processing

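Among the 28 measured members, 23 kept the sign of their ratio under the alternatives that gave a value, and Hif1a, Epas1, Vhl, Pfkm and Pkm did not. All 213 member values moved by less than the SD of 0.31 between probe sets over all genes. Many of them could hardly move, since other floors leave bright genes as they are. Other choices of probe sets likewise cannot move a gene with 1 probe set. Against the SD of 0.16 over the members, 8 moved by more, 1 each of Hif1a, Arnt, Egln1, Vhl, Slc2a1, Pfkl, Pfkfb3 and Pdk1, all under another choice of probe sets. Among these, Egln1 fell under 1.5-fold at 0.43 over its probe sets, and Pdk1 passed it at 0.65 without probe sets of suffix x, s or a. The count of members beyond 2-fold was 0, and 2 with the floor at the 25th percentile (18.1) or with no floor, when Ankrd37 and Slc2a3 enter, and 2 at 1.5-fold. The count over all genes, 449, was 2054 and 3867 with these low floors, 155 with the floor at the 75th percentile (434.6) and 1757 at 1.5-fold. The oxygen-sensing median was 0.0785 without probe sets of suffix x, s or a. The glycolytic median was -0.0623 with the median ratio set to 0, -0.0352 after lowess and -0.0273 without those probe sets. The transport median was 0.17 with the 75th percentile floor, and that of the other hypoxia-responsive genes 0.23 with the 25th and 75th percentile floors and 0.22 with none. Other alternatives kept the sign of these medians and moved them by less than 0.1. Signal near the floor limits Car9, Pfkfb3, Ankrd37 and Slc2a3. No paired analysis was possible because each group has 1 array.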
